A study of Mus musculus with 27 samples.

Results

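Klhl26, Nectin4, Plaur, S100a6, Scmh1 and Sp6 are 6 protein-coding genes, out of 38352 measured. The choice was for the largest replicate-consistent rises in RNA from 6 h to 24 h after a short peroxide exposure of mouse embryonic stem cells. They were chosen by their FPKM at those times against untreated cells, among genes that belong to none of the usual stress pathways. Their levels at 6 h, 8 h, 10 h and 24 h are therefore given as a description with no test, and tests are limited to times the choice did not use. All 6 were among the 13614 genes that reached 1 FPKM (sequenced fragments divided by transcript length in kilobases and scaled to the number mapped in the library) in at least 3 libraries. The label of a large rise from 6 h onward does not describe all of them. S100a6 at 6 h overlapped its untreated 0 h range through 1 untreated library that stood apart from the others. Sp6 had its highest mean at 4 h and overlapped untreated libraries at 10 h and 24 h. By size of change among the tested genes, Scmh1 ranked only 623rd at 6 h and 2900th at 24 h. Plaur ranked 770th and S100a6 4306th at 6 h.

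The cells were E14Tg2a, a wild-type mouse embryonic stem cell line, kept on gelatin in serum medium with leukemia inhibitory factor (LIF) and the inhibitor supplement 2i. Treated cells received 500 µM hydrogen peroxide (H2O2) for 30 min and then spent medium taken from untreated cells. The series text writes this concentration in mM, and the treatment protocol in µM. The 27 libraries of polyadenylated RNA come from 3 separate time courses and fall into 9 groups of 3 biological replicates. Untreated cells were taken at 0 h and 24 h, and treated cells at 0.5 h (as the exposure ended), at each even hour up to 10 h, and at 24 h. No group had the medium exchange alone, so from 2 h on peroxide and the exchange cannot be told apart. As cells of 1 line, these replicates carry no variation between animals.

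The 6 genes act at different places in a cell. Plaur and Nectin4 encode cell-surface proteins: the urokinase receptor, which concentrates plasminogen activation at the membrane, and an immunoglobulin-like adhesion molecule of adherens junctions. S100a6 (calcyclin) is a small calcium-binding protein of the EF-hand type, and Klhl26 belongs to the Kelch-like family, many of whose members hand substrates to the ubiquitin ligase built on Cul3. Scmh1 and Sp6 work in the nucleus, Scmh1 as a Polycomb group protein linked to the gene-silencing complex PRC1, and Sp6 (epiprofin) as a zinc finger factor of the Sp family known from teeth and hair follicles. Naive embryonic stem cells are not a usual setting for several of them, and Plaur, S100a6 and Nectin4 are better known from epithelia and tumors.

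The sequence just before 3 of these genes is printed because the genes differ in timing, Klhl26 and Nectin4 being highest at 6 h and Plaur at 8 h. The bases are from RefSeq promoters on GRCm38.p6, read 5′ to 3′ on the strand of the gene, and stop before the gene start in both RefSeq and GENCODE M21. Capitals mark matches to the motifs searched. Klhl26 is shown at chr8:70476969-70477195 (− strand), Nectin4 at chr1:171369923-171370098 (+ strand) and Plaur at chr7:24462233-24462482 (+ strand).
Klhl26: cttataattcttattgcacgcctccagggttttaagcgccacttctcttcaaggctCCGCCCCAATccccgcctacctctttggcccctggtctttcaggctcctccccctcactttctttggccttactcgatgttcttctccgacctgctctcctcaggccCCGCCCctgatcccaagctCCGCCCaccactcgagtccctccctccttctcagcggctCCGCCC
Nectin4: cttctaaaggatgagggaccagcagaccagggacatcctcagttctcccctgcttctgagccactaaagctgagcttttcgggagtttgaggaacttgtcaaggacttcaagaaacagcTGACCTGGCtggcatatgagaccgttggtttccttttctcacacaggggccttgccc
Plaur: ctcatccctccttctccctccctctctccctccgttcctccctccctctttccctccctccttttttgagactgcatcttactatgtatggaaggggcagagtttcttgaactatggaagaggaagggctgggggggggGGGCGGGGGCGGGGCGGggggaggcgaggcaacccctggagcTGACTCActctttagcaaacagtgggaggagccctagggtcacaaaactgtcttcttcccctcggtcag
The search covered 250 bases before the RefSeq start on both strands, for 5 of the 6 genes and for all 32851 promoters of the table. Plaur alone of the 5 held the AP-1 motif TGANTCA, as TGACTCA 69 bases before its start, a motif present in 6.75% of all promoters. Plaur also held 3 adjoining GC boxes (GGGCGG, in 32.7% of promoters), and Klhl26 and Scmh1 each held 4, Scmh1 at 1 of its 2 RefSeq starts. In Klhl26 the first of these overlaps a CCAAT box, a motif in 33.9% of promoters that S100a6 carries too. Nectin4 held TGACCTGGC, a match to the antioxidant response core TGACNNNGC (10.2% of promoters), 131 bases before its start. None of the 5 held the cyclic AMP response motif TGACGTCA, found in 1.55% of all promoters, or the E-box CACGTG, found in 6.02%. The TATA box motif TATAAA (12.4% of promoters) and a p53 half-site (7.13%) were likewise without a match. A match describes letters only, and binding was not measured.

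Some libraries differed from the others of their group for reasons the groups do not explain. Untreated 0 h replicate 3, 2 h replicate 1, 8 h replicate 3 and 10 h replicate 3 had steeper trends of expression with GC content (0.212 to 0.378 log2 units per 10 points, against −0.0283 to 0.212 elsewhere). Summed FPKM ran from 294485 to 395760 and relative depth from 0.983 to 1.10, absolute depth being unknown. All 10 embryonic stem cell markers examined were expressed. Their sum was lower at 0.5 h, 4 h, 6 h, 8 h and 10 h than in any untreated library. It was 3481 to 4493 FPKM in untreated 0 h cells and 3721 to 4100 in untreated 24 h cells. In treated cells it was 2974 to 3427 at 0.5 h, 3307 to 4165 at 2 h, 3106 to 3308 at 4 h and 2665 to 2907 at 6 h. At 8 h it was 2817 to 3285, at 10 h 2421 to 3073 and at 24 h 3420 to 3528. The markers did not move alike. The pluripotency factor Nanog had means of 344 FPKM in untreated 0 h cells, 107.8 at 4 h, 89.8 at 6 h and 364 at 24 h. Sox2, Zfp42, Tdgf1 and Utf1 were also lower at 4 h and 6 h, while Esrrb went from 109.6 to 115.4 and 120.6. Dppa5a, the largest part of the sum, had means of 1712 FPKM in untreated 0 h cells, 1243 at 0.5 h, 1732 at 4 h and 1463 at 6 h. Those of Pou5f1 in the same groups were 713, 584, 705 and 581 FPKM. Hepatocyte markers, which such cultures should lack, summed to 42.0 to 62.8 FPKM in every 0.5 h and untreated 24 h library, in 1 of the 3 libraries at 6 h and in 2 at 8 h, and to 1.97 to 6.96 FPKM in the rest. Their part in the results below was not tested.

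The tests asked whether the 6 genes had moved at 0.5 h, 2 h or 4 h, times that did not choose them, although the untreated 0 h libraries also served in the choice. Changes are differences of mean log2(FPKM + 1), tested with limma across all 13614 genes with Benjamini-Hochberg adjustment and called at an adjusted p below 0.05. This scale understates the change of weakly expressed genes. At 0.5 h and at 2 h none of the 6 was called by limma, where 0.0808% and 1.07% of all genes were (0.499% higher and 0.566% lower at 2 h). At these times 1352 and 1033 genes had an unadjusted p below 0.05. At 4 h 4 of the 6 rose, Klhl26, Nectin4, Scmh1 and Sp6, where 26.3% of all genes were called, 14.2% higher and 12.1% lower. The same 4 rose from 2 h to 4 h, where 20.1% of all genes were called, 10.2% as higher. No library of these 2 groups served in the choice of genes. The spread behind each p was estimated over all 27 libraries, however, including those that did serve in it. The same 4 stayed called when only these 2 groups were fitted. From 0.5 h to 2 h none of the 6 was called by limma, where 1.17% of all genes were and 1803 had an unadjusted p below 0.05. At 4 h and from 2 h to 4 h Plaur and S100a6 were not called.

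**Figure D1:**
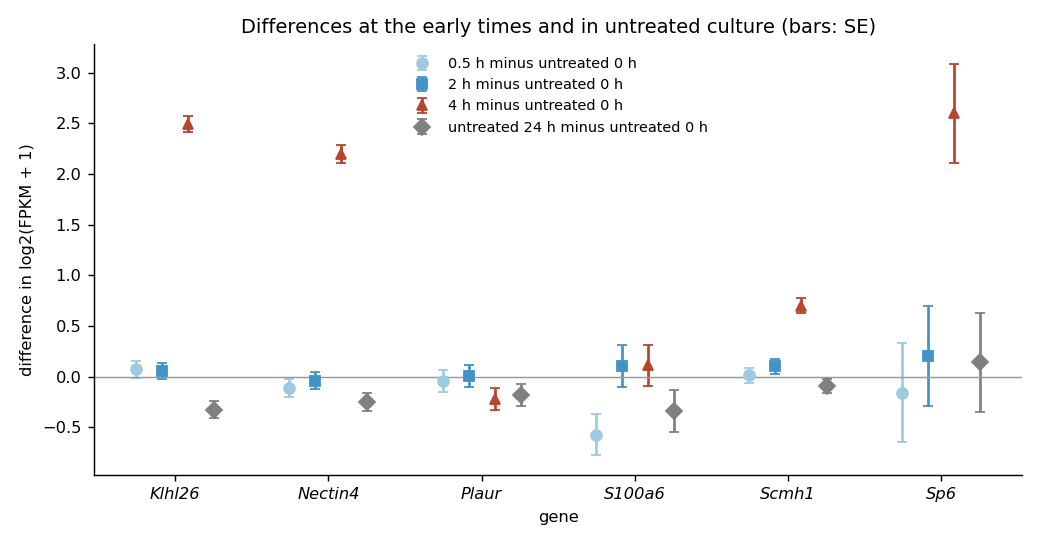
Difference in log2(FPKM + 1) for each gene at 0.5 h, 2 h and 4 h against untreated 0 h, and between the 2 untreated groups (n = 3 libraries a group, bars are SE from limma). The 4 h points of Klhl26, Nectin4, Scmh1 and Sp6 stand between 0.70 and 2.60, while those of Plaur and S100a6 lie near 0.

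Among the surface proteins, Nectin4 went from barely detected to moderately expressed within a few hours. Its gene (ENSMUSG00000006411) lies on chromosome 1 from 171370099 to 171388598. In untreated 0 h cells it measured 1.13, 1.18 and 0.862 FPKM in replicates 1, 2 and 3, and at 2 h it was still at 1.11, 0.902 and 0.990. At 4 h the 3 libraries read 8.26, 7.64 and 9.52 FPKM, each above every untreated library. The 4 h change was 2.20 (SE 0.09, adjusted p = 1.55e-13, limma), a ratio of mean FPKM of 7.99. From 2 h to 4 h it was 2.24 (adjusted p = 2.24e-13). At 6 h the libraries reached 14.1, 13.4 and 14.5 FPKM, 13.2 times the untreated mean. By difference in log2(FPKM + 1), which shrinks the changes of weakly expressed genes, it ranked sixth of all tested genes at that time. Then Nectin4 stood at 4.43 to 4.73 FPKM at 8 h and 2.80 to 3.18 at 10 h. At 24 h it read 1.62, 1.64 and 1.08 against 0.676, 0.812 and 0.696 in untreated 24 h cells. These groups did not overlap, at a time that the choice of genes used.

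Plaur, the urokinase receptor, took the opposite order: no increase at 4 h, and its highest levels at 8 h and 10 h. The gene (ENSMUSG00000046223) lies on chromosome 7 from 24462484 to 24475968. Untreated 0 h libraries held 3.65, 3.97 and 4.39 FPKM. At 4 h the values were 3.43, 3.13 and 3.34, all below the untreated ones, with a change of −0.22 (SE 0.11, adjusted p = 0.16, limma). With each library corrected for GC content and for transcript length, this decrease was called (−0.27, adjusted p = 0.014), as was the decrease from 2 h to 4 h (−0.25, adjusted p = 0.0286). In that fit 31.7% of all genes were called at 4 h and 25.2% from 2 h to 4 h. Without the 4 libraries that stood apart neither decrease was called (−0.16, adjusted p = 0.101, and −0.10, adjusted p = 0.366, limma). At 6 h Plaur read 7.87, 7.74 and 9.14 FPKM, and at 8 h 20.2, 21.7 and 25.1, which is 5.57 times the untreated mean. At 10 h it held at 19.3, 18.3 and 22.6, the fourth largest log2(FPKM + 1) change of all tested genes at that time. The highest value at 8 h and at 10 h was in each case replicate 3, a library that stood apart, and the described changes without the 4 such libraries were 2.19 and 2.04 against 2.22 and 2.07 with them. At 24 h Plaur stood at 6.98, 6.21 and 5.49 FPKM, above 3.65, 3.42 and 3.15 in untreated 24 h cells.

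**Figure D2:**
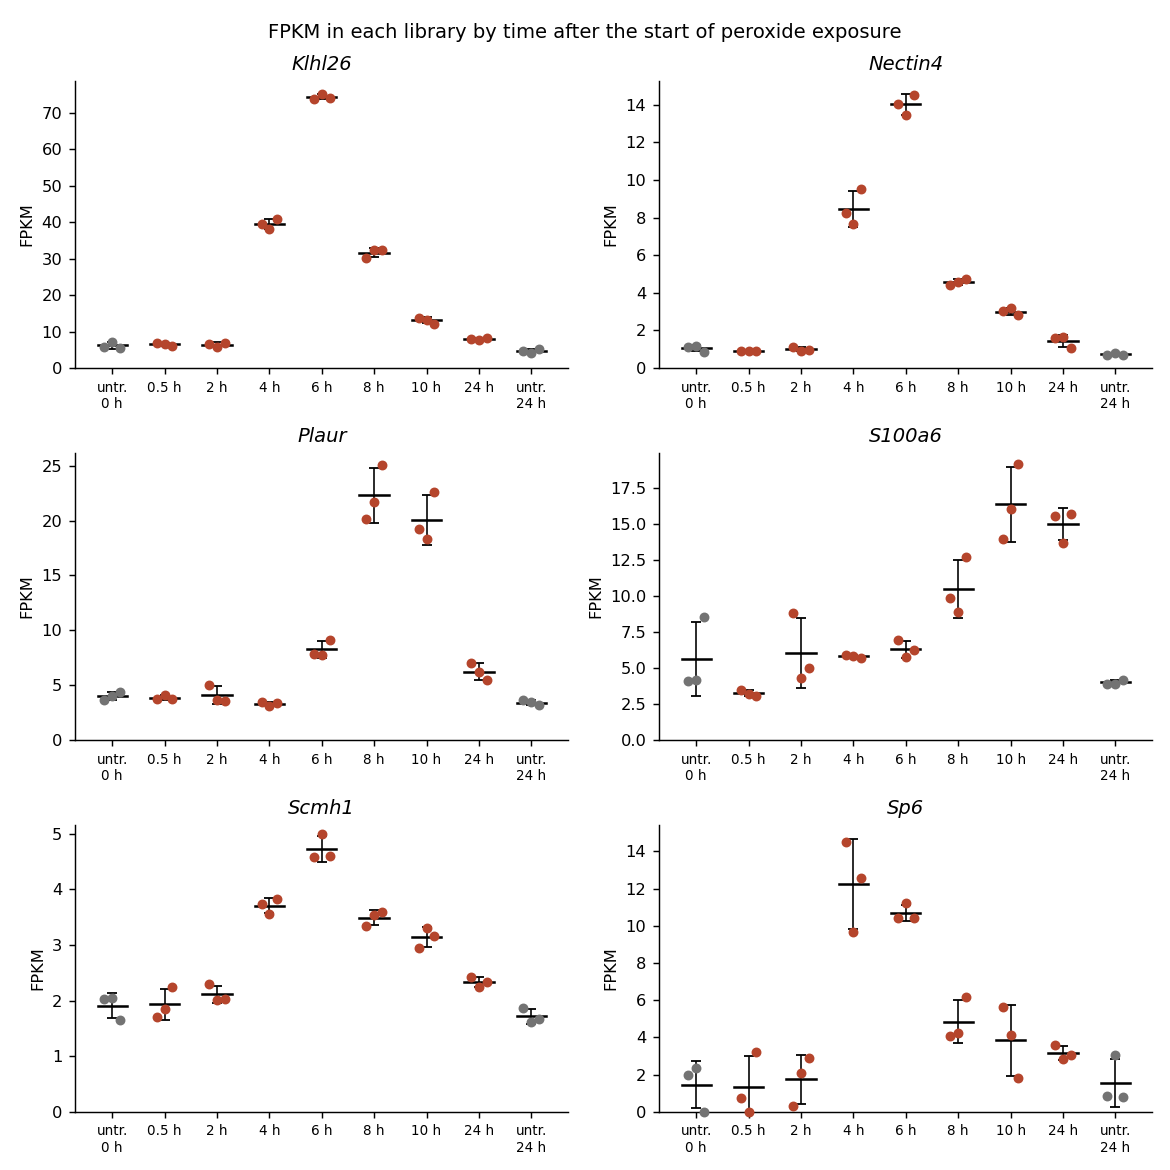
FPKM of the 6 genes in every library (points, grey for untreated and red for treated cells), with the group mean and SD (black, n = 3), on linear axes of different range. Klhl26, Nectin4 and Scmh1 are highest at 6 h, Sp6 at 4 h, Plaur at 8 h and S100a6 at 10 h.

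S100a6 had the latest peak of the 6, at 10 h, and the largest ratio to untreated cells at 24 h. Without the 4 libraries that stood apart, its means were 14.97 FPKM at 10 h and 14.95 at 24 h, so the 10 h peak was not set off from 24 h. Its gene (ENSMUSG00000001025) lies on chromosome 3 from 90612882 to 90624181. The untreated 0 h libraries read 4.10, 4.14 and 8.55 FPKM, the high one being replicate 3, which stood apart. At 2 h the values were 8.77, 4.32 and 4.98, again high in the library that stood apart. At 4 h they were 5.89, 5.82 and 5.70 and at 6 h 6.90, 5.74 and 6.22. These values lay below that 1 high untreated library and above the other untreated libraries of both times. The described 6 h change was 0.21, and 0.51 without the 4 libraries that stood apart. The 4 h change was 0.11 (SE 0.20, adjusted p = 0.779, limma), and 0.41 (adjusted p = 0.000318) without the 4 libraries that stood apart. The step from 2 h to 4 h was 0.01 (adjusted p = 0.991), and 0.27 (adjusted p = 0.0105) without them. In the fit without these 4 libraries 50.6% of all genes were called at 4 h and 40% from 2 h to 4 h. With the GC and length correction neither change of S100a6 was called (0.08, adjusted p = 0.758, and 0.003, adjusted p = 0.994, limma). At 8 h S100a6 measured 9.83, 8.85 and 12.7 FPKM and at 10 h 13.9, 16.03 and 19.1. The described changes were 0.85 and 1.45, and 1.01 and 1.64 without the 4 libraries. At 24 h it still read 15.6, 13.7 and 15.6, against 3.91, 3.89 and 4.15 in untreated 24 h cells. That is 3.75 times the matched untreated mean and the fifth largest log2(FPKM + 1) change of all tested genes at 24 h.

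On the log2(FPKM + 1) scale, Klhl26 had the largest change of all 13614 tested genes at 6 h, although by ratio of mean FPKM the change of Nectin4 was larger. The gene (ENSMUSG00000055707) is on the minus strand of chromosome 8 from 70450219 to 70476968. It measured 5.82, 7.17 and 5.63 FPKM in untreated 0 h cells, 6.99, 6.56 and 6.10 at 0.5 h and 6.60, 5.85 and 6.97 at 2 h. These 3 groups overlapped throughout. At 4 h the libraries read 39.5, 38.1 and 40.8 FPKM, and the change was 2.50 (SE 0.08, adjusted p = 6.89e-15, limma), or 6.36 times in mean FPKM. The step from 2 h to 4 h was 2.44 (adjusted p = 2.18e-14). At 6 h Klhl26 reached 73.7, 75.1 and 74.1 FPKM, 12.0 times the untreated mean, with an SD of 0.714 FPKM between replicates. At 8 h the values were 30.2, 32.4 and 32.3 and at 10 h 13.8, 13.2 and 12.2. At 24 h they were 8.07, 7.83 and 8.37, higher than 4.67, 4.21 and 5.35 in untreated 24 h cells.

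The untreated level of Klhl26 itself differed between 0 h and 24 h under some settings. Between the untreated groups none of the 6 genes was called, where 0.705% of all genes were and 1285 had an unadjusted p below 0.05. Klhl26 changed by −0.33 (SE 0.08, adjusted p = 0.0714) and Nectin4 by −0.25 (SE 0.09, adjusted p = 0.262). Klhl26 was called when untreated 0 h replicate 3 was left out (−0.38, adjusted p = 0.0323, limma). Without all 4 libraries that stood apart Nectin4 was called as well (−0.32, adjusted p = 0.0133, limma). In that fit 30.1% of all genes were called, 11.7% higher and 18.4% lower. Ratios at 24 h are therefore given against untreated 24 h cells.

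In the nucleus, the Polycomb group gene Scmh1 had the smallest change of the 4 genes called at 4 h, and the smallest SE. It lies on chromosome 4 from 120405281 to 120530186 (ENSMUSG00000000085). Untreated 0 h libraries read 2.03, 2.04 and 1.65 FPKM, and 4 h libraries 3.74, 3.56 and 3.83. The change was 0.70 (SE 0.07, adjusted p = 1.85e-07, limma), a ratio of 1.95, and 0.60 (adjusted p = 2.33e-06) from 2 h to 4 h. Scmh1 reached 4.58, 4.99 and 4.61 FPKM at 6 h, 2.48 times the untreated mean. It stood at 3.34 to 3.60 at 8 h, 2.94 to 3.30 at 10 h and 2.25 to 2.42 at 24 h, with untreated 24 h cells at 1.62 to 1.88. Scmh1 ranked only 623rd among tested genes at 6 h and 2900th at 24 h by size of change.

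Sp6 had the earliest highest mean of the 6, at 4 h, and was the least precisely measured. Its 4 h and 6 h libraries overlapped, with a described step of −0.16 (SE 0.49) from 4 h to 6 h. The gene (ENSMUSG00000038560) lies on chromosome 11 from 97013394 to 97024734. It read 1.98, 2.37 and 0 FPKM in untreated 0 h cells, 0.714, 0 and 3.22 at 0.5 h, and 0.301, 2.07 and 2.86 at 2 h. At 4 h the libraries held 14.5, 9.66 and 12.5 FPKM, clear of every earlier value. The change was 2.60 (SE 0.49, adjusted p = 0.000355, limma), and 2.39 (adjusted p = 0.00108) from 2 h to 4 h. At 6 h Sp6 read 10.4, 11.2 and 10.4, at 8 h 4.09, 4.25 and 6.18, and at 10 h 5.63, 4.10 and 1.83. The described change at 8 h was 1.42, and 0.71 without the 4 libraries that stood apart, among them the untreated one listed at 0. The 10 h and 24 h groups overlapped untreated groups: 24 h cells held 3.59, 2.82 and 3.05 FPKM, against 0.837, 3.05 and 0.808 in untreated 24 h cells.

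An overlapping gene was high in several libraries where Sp6 was low. Gm11532 (ENSMUSG00000087067) lies on the opposite strand from 97020508 to 97026248, and whether the authors counted by strand is not given in the sources used here, so the split of fragments between the 2 genes is uncertain. Where Sp6 was listed at 0, in untreated 0 h replicate 3 and 0.5 h replicate 2, Gm11532 read 1.68 and 2.33 FPKM. Where Sp6 was highest among the 0.5 h libraries, at 3.22, Gm11532 was at 0.0204. The sum of both, chosen after the values were seen, was 2.33, 2.46 and 1.68 FPKM in untreated 0 h cells and 2.44, 2.33 and 3.24 at 0.5 h. At 2 h it was 2.85, 3.53 and 3.84, and at 4 h 15.8, 14.5 and 15.3. The 6 h libraries summed to 11.3, 11.3 and 11.8. At 10 h the sum was 5.63, 5.13 and 4.25, above every untreated library, where Sp6 alone overlapped them. At 24 h it was 3.62, 3.26 and 3.38, against 1.88, 3.10 and 1.96 in untreated 24 h cells. Gm11532 on its own changed by 1.22 (SE 0.50, adjusted p = 0.0807, limma) at 4 h and was not called.

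**Figure D3:**
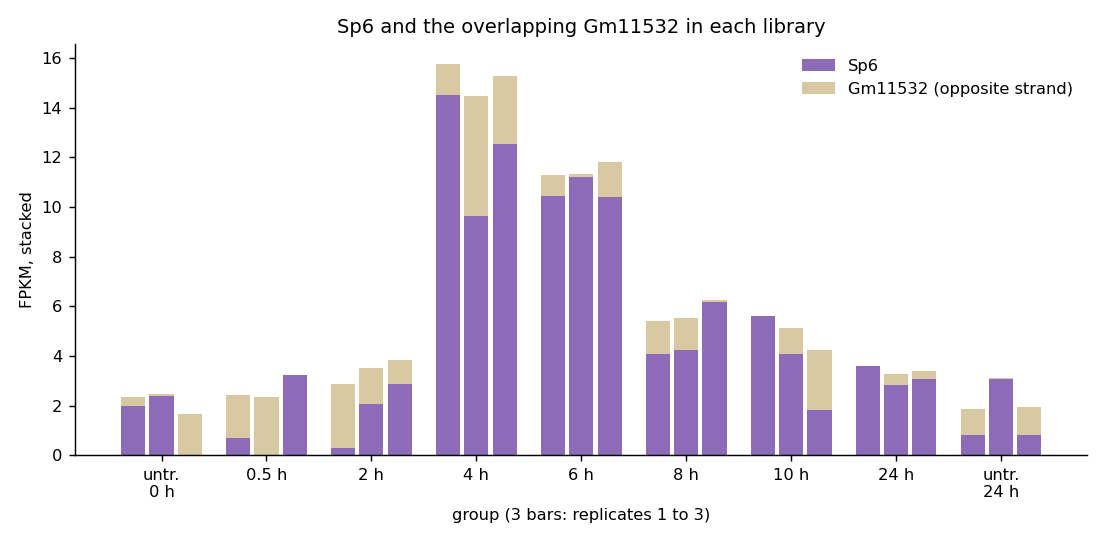
FPKM of Sp6 (purple) and of Gm11532 on the opposite strand (tan), stacked, in each of the 27 libraries ordered by group and replicate. In untreated, 0.5 h and 2 h cells the stacks are between 1.68 and 3.84 high while the division between the 2 genes varies, and at 4 h they are 14.5 to 15.8 high.

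Set side by side as a share of each gene's own highest mean rise over untreated 0 h, the time courses of the 6 genes differed. At 4 h Sp6 was at its peak, Scmh1 at 63.9%, Nectin4 at 57.2% and Klhl26 at 48.8%, while S100a6 was at 1.93% and Plaur at −3.86%. Without the 4 libraries that stood apart S100a6 was at 15.5% at 4 h and Plaur at −2.99%. At 8 h Plaur was at its peak and S100a6 at 45.3%, and the other 4 had come down to 27.1% (Nectin4), 31.4% (Sp6), 37.3% (Klhl26) and 56.1% (Scmh1). By 24 h, against the matched untreated cells, the rise left was 4.91% for Klhl26, 5.56% for Nectin4, 14.7% for Sp6, 15.4% for Plaur, 21.9% for Scmh1 and 102% for S100a6. These shares come from the values that chose the genes and carry no test.

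**Figure D4:**
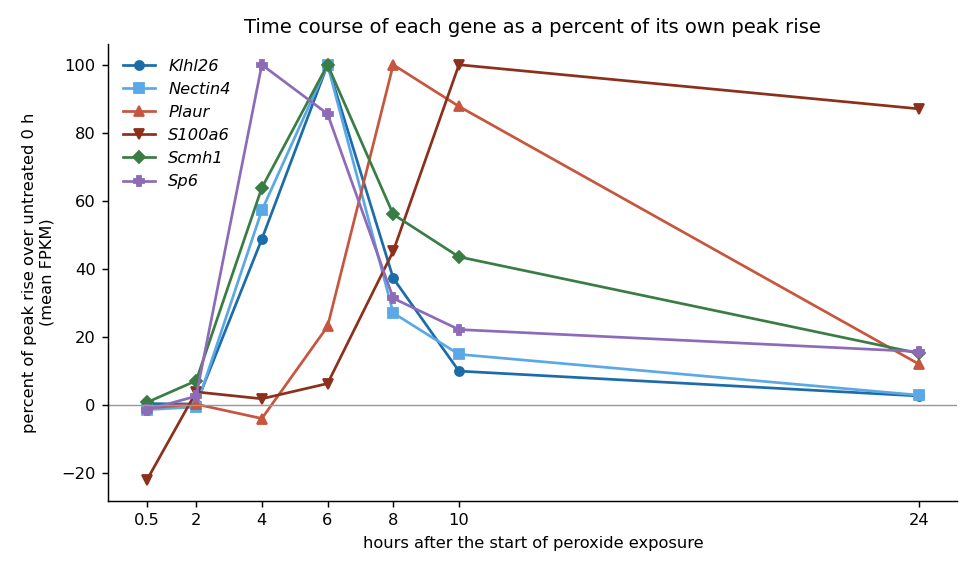
Mean rise in FPKM over untreated 0 h at each time, as a percent of the gene's own highest mean rise, against hours on a linear axis (3 libraries a time). Klhl26, Nectin4 and Scmh1 share a peak at 6 h, Plaur peaks at 8 h, and S100a6 remains at 87.1% of its rise at 24 h on this scale. Without the 4 libraries that stood apart, this share of S100a6 is 99.9%.

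Across the 27 libraries, which share the same groups and the same time course, Klhl26 and Nectin4 had a Pearson correlation of 0.986 in log2(FPKM + 1). Scmh1 followed both (0.961 with Klhl26 and 0.964 with Nectin4), and Sp6 less closely (0.825 and 0.852). Plaur and S100a6 correlated at 0.722 with each other, and at 0.405 and 0.192 with Klhl26. Over all tested genes, Klhl26 was matched most closely by Plpbp, a pyridoxal phosphate-binding protein (0.989), whose mean was 6.70 FPKM at 0 h and 20.02 at 6 h. Nectin4 was matched by Tas1r1, a taste receptor subunit (0.986), at 0.858 FPKM in untreated 0 h cells and 9.41 at 6 h. The nearest match to Scmh1 was Ppard, a fatty acid-responsive nuclear receptor (0.975), at 3.19 and 10.6 FPKM at 0 h and 6 h, followed by Sfi1 (0.974). For Plaur the nearest were AA986860 (0.966) and Hbegf, a ligand of the epidermal growth factor receptor (0.965), the latter at 1.43 FPKM at 0 h, 1.07 at 4 h and 3.64 at 8 h. S100a6 was followed by Ier5 (0.922) and by Capg, an actin filament capping protein (0.917), at 5.09 FPKM at 0 h, 4.44 in untreated 24 h cells and 8.67 at 24 h. For Sp6 they were Ankrd33b (0.915) and Sde2 (0.913). All are descriptions over 27 libraries.

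The nearest tested genes on each side showed whether a whole neighborhood moved with a member. Next to Klhl26, Crtc1, a coactivator of CREB, rose by smaller amounts, 0.20 at 4 h (adjusted p = 0.0421) and 0.33 at 6 h (adjusted p = 0.000813, limma), and was at its highest change of 0.48 at 10 h (adjusted p = 2.91e-05). Tmem59l on the other side was called at 8 h alone of the treated times (0.41, adjusted p = 0.023). Arhgap30, whose gene begins 355 bases past the end of Nectin4, was called at no treated time, with a 6 h change of −0.12 (adjusted p = 0.485). Pfdn2, a prefoldin subunit on the other side of Nectin4, fell by 0.51 at 6 h (adjusted p = 0.0141). Cadm4, 6054 bases from Plaur, was called at no treated time against its untreated group, and Smg9 rose at 4 h only (0.39, adjusted p = 0.0335). Beside S100a6, S100a16 rose at 10 h (0.55, adjusted p = 0.0259) and S100a7l2 was not called. Beside Scmh1, Foxo6 fell at 4 h and 6 h (−0.51 and −0.76, adjusted p = 0.0439 and 0.00188), and Ctps was not called.

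Sp2, the nearest tested gene to Sp6 on 1 side and itself an Sp factor, rose with it. Its mean was 24.0 ± 0.819 FPKM (SD, n = 3) in untreated 0 h cells and 40.1 ± 1.39 at 4 h, a change of 0.72 (adjusted p = 1.79e-08, limma). At 6 h the change was 0.55 (adjusted p = 3.56e-07), and at 8 h 0.02 (adjusted p = 0.812). Of the 8 other Sp factors listed, 5 were tested. Beside Sp2, Sp5 fell at 4 h (−0.73, adjusted p = 0.000168), from 1.82 to 0.693 FPKM, so at 4 h 1 of 5 was higher and 1 lower, or 1 and 3 without the 4 libraries that stood apart, where 22.9% of all genes were called higher and 27.7% lower. Sp5, a target of the Wnt pathway in these cells, was then higher, at 7.71 FPKM at 8 h (1.62, adjusted p = 3.32e-09) and 7.95 at 10 h.

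Genes that work with Plaur moved in both directions at 4 h and 6 h, and at 24 h more rose than fell. Of 24 genes of plasminogen activation 17 were tested: 2 rose and 2 fell at 4 h, and 3 rose and 4 fell at 6 h, where 42.3% of all genes were called (22.3% higher and 20% lower). St14, the membrane protease matriptase, went from 6.20 ± 0.751 to 18.2 ± 0.923 FPKM at 6 h (1.42, adjusted p = 3.54e-12, limma), and the protease inhibitor Serpine2 from 1.80 to 4.81 FPKM (1.06, adjusted p = 6.45e-10). The integrin subunit Itga5 fell by 0.71 on the log2 scale (adjusted p = 4.25e-06). At 24 h 5 of the 17 rose and 1 fell, with a median of 0.24, where 12.9% of all genes were called (8.63% higher and 4.28% lower) and the median over all genes was 0.07. Without the 4 libraries that stood apart, none of them in these 2 groups but all in the shared fit, 9 rose and 1 fell, where 33.1% of all genes were called higher and 18.2% lower in the same fit.

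At 4 h, when Nectin4 rose, the other 3 nectins fell. Of 23 nectins, nectin-like proteins and junction partners 17 were tested, of which none rose and 3 fell at 4 h, and 2 rose and 4 fell at 6 h (medians 0.04 and −0.04). At 4 h 26.3% of all genes were called and at 6 h 42.3%, so the list as a whole was called no more often than genes in general. Nectin2 went from 22.4 ± 2.19 FPKM in untreated 0 h cells to 14.4 at 4 h and 11.7 ± 0.596 at 6 h (−0.88, adjusted p = 9.36e-09, limma), and was at 25.9 at 8 h. Nectin1 and Nectin3, named after their values were seen, fell at 4 h by 0.28 and 0.27 on the log2 scale (adjusted p = 0.0037 and 0.0114). E-cadherin, encoded by Cdh1, was lower at 6 h (−0.51, adjusted p = 0.0199), and the junctional molecule F11r was higher (0.49, adjusted p = 0.00019). Without the 4 libraries that stood apart none rose and 8 fell at 4 h, and 1 rose and 9 fell at 6 h, where 50.6% and 56.1% of all genes were called in that fit.

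Among 22 S100 proteins and partners, 11 were tested. At 6 h 2 rose and 2 fell, and at 10 h, when S100a6 was highest, 5 rose and 2 fell (median 0.38, against 0.11 over all genes, of which 31.7% were called, 22.2% higher and 9.43% lower). S100a13 rose earlier than S100a6, from 6.32 ± 2.34 to 24.6 ± 0.595 FPKM at 6 h (1.85, adjusted p = 4.98e-08, limma), as did S100a1 (0.93, adjusted p = 0.00158). Cacybp, a binding partner of calcyclin, fell by 0.72 on the log2 scale (adjusted p = 1.29e-09). At 24 h, with S100a6 still high, 1 of the 11 rose and 1 fell, with 12.9% of all genes called. Without the 4 libraries that stood apart 7 rose and 1 fell, where 51.3% of all genes were called.

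Of 48 Kelch-like relatives of Klhl26 together with Cul3 and its partner Rbx1, 29 were tested. At 4 h 6 rose and 3 fell, at 6 h 12 rose and 4 fell, and at 8 h 17 rose and none fell, with medians of 0.15, 0.21 and 0.41 (0.01, 0.00 and 0.11 over all genes). At 8 h 40.7% of all genes were called, 29.2% higher and 11.6% lower. With median-of-ratios scaling 12 rose and 2 fell at 8 h, where 20.5% of all genes were higher and 19.1% lower. With the GC and length correction 10 rose and 2 fell, where 22% of all genes were higher and 21.6% lower. Kbtbd11 (1.25, adjusted p = 3.06e-05), Klhl42 (1.24, adjusted p = 6.19e-12) and Klhl8 (1.03, adjusted p = 2.54e-07, limma) had the largest changes at 6 h, all well below the 3.39 of Klhl26. Without the 4 libraries that stood apart 12 rose and 9 fell at 6 h, and the median was 0.03, where 25.4% of all genes were called higher and 30.7% lower. Cul3 itself, named after its values were seen, was not called at 6 h (−0.14, adjusted p = 0.435).

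Around Scmh1, genes of Polycomb repressive complex 1 and its associates moved in both directions. Of 30 listed, 27 were tested: 4 rose and 5 fell at 4 h, and 6 rose and 11 fell at 6 h with a median of −0.25. For comparison, 14.2% of the 13614 genes rose and 12.1% fell at 4 h, and 22.3% rose and 20% fell at 6 h, when their median was 0.00. Pcgf3, a subunit of a variant complex, went from 6.12 ± 1.61 to 16.1 ± 0.508 FPKM at 6 h (1.29, adjusted p = 2.74e-07, limma). Hoxb9, counted in this list as a homeobox gene that the complex is known to bind and not as a subunit, was among the 4 that rose at 4 h. It went from 2.36 to 7.82 FPKM (1.41, adjusted p = 7.17e-09, limma). Without the 4 libraries that stood apart 18 of the 27 fell at 6 h and 6 rose, where 30.7% of all genes were called lower and 25.4% higher. At 10 h 9 rose and none fell, where 22.2% of all genes were higher and 9.43% lower. With median-of-ratios scaling 4 rose and 2 fell, where 15.1% of all genes were higher and 15.4% lower.

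Levels of the factors whose motif stands before Plaur were followed as well. AP-1 is formed by Fos, Jun and related proteins, and 10 of 15 such genes were tested. At 2 h 6 of them rose, at 4 h 8, at 6 h 7 with 1 lower, at 8 h 8 and at 10 h 9, with medians of 0.69, 1.24, 1.17, 0.70 and 0.54. The shares of all genes called higher at these times were 0.499%, 14.2%, 22.3%, 29.2% and 22.2%. Fosl1 went from 0.100 ± 0.0426 to 8.21 ± 1.42 FPKM at 6 h (3.05, adjusted p = 4.43e-14, limma), Maff from 1.03 to 10.7 FPKM at 4 h (2.53, adjusted p = 1.3e-12) and Fos from 0.935 to 6.63 FPKM at 4 h (1.99, adjusted p = 1.24e-10). At 4 h, with these 3 genes above their untreated levels, Plaur was not above its own. Fosl1 was at 2.64 FPKM at 8 h and 1.07 at 10 h, when Plaur was highest. Whether these factors act on Plaur was not tested.

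Most targets of p53, a transcription factor activated by DNA damage, rose at 4 h, as Klhl26, Nectin4, Scmh1 and Sp6 did. All 32 listed targets were tested. At 2 h 1 rose and 1 fell, at 4 h 25 rose and 1 fell, at 6 h 26 rose and 1 fell, and at 10 h 18 rose and none fell, with medians of 0.04, 0.85, 0.88 and 0.35. Over all genes 1.07%, 26.3%, 42.3% and 31.7% were called at these times. Polk, a DNA polymerase that copies past lesions, had a change of 2.30 at 6 h (adjusted p = 9.58e-09, limma). The death receptor gene Fas changed by 2.03 (adjusted p = 4.14e-12) and Mdm2, the main inhibitor of p53, by 2.02 (adjusted p = 2.38e-09). Klhl26, at 3.39, stood above all 3, at a time that the choice of genes used. Whether p53 acts on any of the 6 genes was not tested. Many of these lists were shaped with earlier results of the same libraries known and give no independent evidence of direction.

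**Figure D5:**
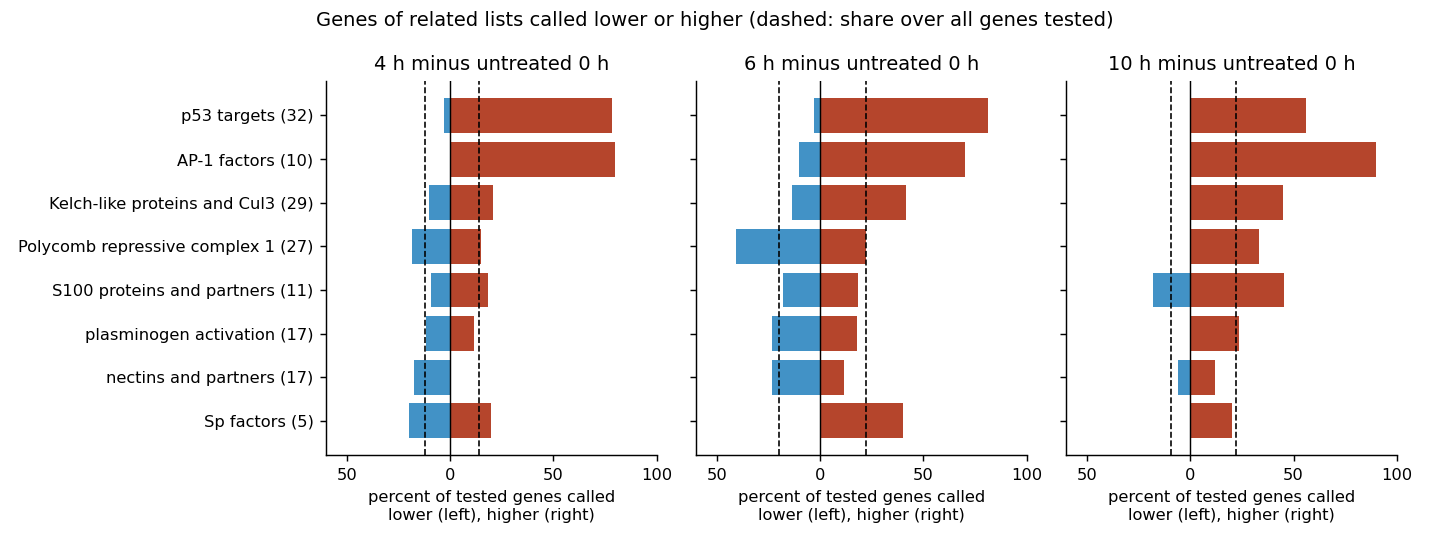
Percent of the tested genes of each list (number tested in brackets) called higher (red, right) or lower (blue, left) by limma at 4 h, 6 h and 10 h against untreated 0 h, with dashed lines at the shares over all 13614 genes. At 4 h 25 of 32 p53 targets and 8 of 10 AP-1 factors were higher. At 6 h 11 of 27 genes of the Polycomb list, which includes Hoxb9, were lower.

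Markers of other cell types were measured beside Plaur and S100a6, which are known from epithelia. In bulk RNA a change in cell make-up and a change in RNA per cell cannot be told apart. The summed level of 10 keratinocyte markers was 15.1 to 22.4 FPKM in untreated 0 h cells, 29.7 to 39.2 at 8 h, 50.1 to 60.8 at 10 h and 25.5 to 28.1 at 24 h, with untreated 24 h cells at 12.0 to 16.3. Most of it was Sfn, also known as a p53 target and at a mean of 50.4 FPKM at 10 h, while Krt1, Ivl and Dsg3 were below 0.1 FPKM in every library, and Krt5 and Krt14 did not exceed 1.20 and 0.220. At these low levels Krt15 and Krt5 were higher after treatment. Krt15 had means of 0.0707 FPKM in untreated 0 h cells and 1.03 at 6 h, and Krt5 of 0.0653 and, at 10 h, 0.850. Trp63 and Col17a1 did not exceed 0.146 and 0.251. The summed trophectoderm markers were 44.6 to 50.5 FPKM at 24 h and 29.7 to 34.2 in untreated 24 h cells, with Elf5 below 0.1 in every library. At 6 h they were 19.4 to 21.2. Krt8 and Krt18 gave most of the difference at 24 h, with means of 21.4 and 8.23 FPKM against 12.1 and 3.41. Krt19 and Gata3 were higher too, at 2.43 and 1.19 against 1.02 and 0.489. Cdx2, Eomes and Tfap2c were at 0.810, 4.25 and 8.49, against 0.680, 4.21 and 9.21. Fibroblast markers summed to 23.3 to 60.5 FPKM and macrophage and neutrophil markers to 14.5 to 29.3 over all libraries, with Col3a1 and Adgre1 below 0.1 in each. The 8 astrocyte markers summed to 9.26 to 13.04 FPKM in untreated 0 h cells, 19.6 to 27.6 at 6 h and 27.6 to 30.1 at 8 h. In untreated 24 h cells the sum was 14.15 to 14.78. Gja1 and Aldh1l1 gave most of it, and no marker was below 0.1 in every library. These markers did not move alike. Mean Gfap and Lcn2 were 0.158 and 0.00687 FPKM in untreated 0 h cells, 1.97 and 2.25 at 0.5 h and 0.229 and 0.025 at 4 h. They were 2.61 and 3.04 at 8 h and 1.94 and 2.40 in untreated 24 h cells. The part of all these cell type markers in the levels of the 6 genes was not tested.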

How the data were processed

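Polyadenylated RNA of 27 libraries was measured by stranded paired-end sequencing, per the labels' protocols. Cutadapt, FastQC, HISAT2, StringTie, edgeR and the build mm10 are listed, without versions, in the submitters' processing notes. How strand was treated in counting and which annotation was used is not given in the sources used here. FPKM values are all that was used: the authors deposited FPKM for each library in 7 tables of 38352 genes, joined here by Ensembl identifier. Depth is unknown in FPKM, so no counting interval is given.

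FPKM was converted to log2(FPKM + 1), genes had to reach 1 FPKM in 3 or more libraries, and 1 model over 9 groups was fitted with limma 3.58.1 (R 4.3.3, mean-variance trend, Benjamini-Hochberg adjustment within each comparison, threshold 0.05). The procedure was tested on simulated data. The members, the gene lists and the markers were chosen with earlier results of these data known, so no p is adjusted over the members or a list alone. Genes named besides the 6 are the 2 best correlated with each, the nearest tested gene on each side and up to 3 called genes with the largest change at 4 h or 6 h from each list; exceptions are marked, and an item that this rule names is not reported here. Positions are from GENCODE M21 on GRCm38.

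Alternatives were a pseudocount of 0.1, no filter or 5 FPKM, median-of-ratios scaling, no trend, a replicate block, other controls, fewer libraries, and, added after the data were seen, a correction for GC content and length.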

Additional observations from a re-analysis of the deposited data

Results flagged for a closer look

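In 4 of the 6 genes the change against untreated 0 h differed between 4 h and 2 h by a direct test of the difference (limma, adjusted over all genes). The 4 h effect exceeded the 2 h effect by 2.44 for Klhl26, 2.24 for Nectin4, 2.39 for Sp6 and 0.60 for Scmh1, in log2 units. As both effects share the untreated 0 h libraries, each difference equals the step from 2 h to 4 h reported above, and in each of these 4 genes all 3 libraries at 4 h exceeded all 3 at 2 h.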

How the results depend on the processing

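Klhl26, Nectin4 and Sp6 remained called at 4 h against untreated 0 h and from 2 h to 4 h under every alternative run, and Scmh1 in all in which it was tested; it was not tested with the 5 FPKM filter. Their 4 h changes ranged from 2.44 to 2.66 for Klhl26, 2.12 to 2.89 for Nectin4, 0.63 to 0.93 for Scmh1 and 2.04 to 3.93 for Sp6, with highest adjusted p of 0.00178, 0.00185, 0.0165 and 0.0259, each from the fit of only the 2 groups. Counts of the 6 genes called were 3 to 5 at 4 h and from 2 h to 4 h, and 0 throughout at 0.5 h and 2 h. Between the untreated groups 0 became 1 with scaling, with the replicate block plus scaling and with the GC and length correction. It became 2 without the 4 libraries that stood apart, where 30.1% of all genes were called. Leaving out 1 library at a time gave 0 to 1. From 0.5 h to 2 h 0 became 1 (S100a6, 0.41, adjusted p = 0.00581, limma) without the 4 libraries, where 2.73% of all genes were called. Among untested steps, Sp6 from 8 h to 10 h turned from −0.34 to 0.17 without the 4 libraries and ranged from −0.60 (without 10 h replicate 1) to 0.011 (without 10 h replicate 3). From 10 h to 24 h Sp6 ranged from −0.49 (without 10 h replicate 3) to 0.12 (without 10 h replicate 1), against −0.14. The cause was not tested. Another 37 described changes moved by more than the spread between replicates, mostly with the pseudocount of 0.1, and none of those changed direction. Samples of the same number did not deviate together throughout (correlations −0.80 to 0.64), and the replicate block changed none of the 6 genes' calls; calls over all genes at 4 h were 3710 with it and 3577 without. Over all genes, leaving out the 4 libraries gave 6883 calls at 4 h, and fitting only the 2 groups 1061. FPKM hides depth, which limits low values such as those of Sp6 most.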
